A study of Mus musculus with 4 samples.

Results

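The 10 genes described here encode inflammatory cytokines, their receptors and a feedback gene, and were chosen by symbol from the 55487 genes of the deposited tables. The ligands are Il1a and Il1b (the interleukin-1 cytokines), Tnf (tumour necrosis factor), Il6 (interleukin-6), Csf1 (macrophage colony-stimulating factor) and Csf3 (granulocyte colony-stimulating factor). The receptors are Il1r1, which binds both interleukin-1 cytokines, and Tnfrsf1a and Tnfrsf1b, which bind TNF. Socs3 encodes an inhibitor of JAK-STAT signalling that is itself induced by the interleukin-6 family and by granulocyte colony-stimulating factor. All 10 had counts, and they were followed by library and by cell class to show which recovered cells carried each ligand and which carried the receptors.

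Interleukin-1 and TNF are made by macrophages, microglia and neutrophils, and both act through receptors whose signalling activates the NF-kB transcription factors. Brain endothelium is a known target of both, and responds with adhesion molecules, chemokines, interleukin-6 and the colony-stimulating factors that feed macrophages and neutrophils. Interleukin-6 and granulocyte colony-stimulating factor signal through STAT3, and SOCS3 switches that signal off.

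Mouse brain cells were profiled by droplet single-cell RNA sequencing, with 4 libraries and thus 1 for each group. The groups were WT Cre and EC-K4KO, each young and old, and values are given in the order young WT Cre, young EC-K4KO, then old WT Cre, and last old EC-K4KO unless a library is named. WT Cre mice carry the Cdh5 (VE-cadherin) Cre driver, and EC-K4KO littermates carry the same inducible driver with floxed Klf4, induced with tamoxifen in adult mice, so both groups carry Cre and the deletion is limited to cells that express Cdh5. Mice of both sexes were used, ages are labelled only as young or old (the study gives ranges of months for its cohorts, without tying these libraries to single ages), endothelial cells were enriched before loading, and the number of mice behind each library is not given in the sources used here. Each library is therefore a sample of 1 for its group, and the spread between mice of a group could not be measured.

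The libraries held 5324 to 8358 barcodes and 30655769 to 88812581 UMIs (unique molecular identifiers, each a captured RNA molecule). Of these barcodes, 20737 cells were kept, with a median of 4538.5 to 8759 UMIs per cell, deepest in young EC-K4KO and shallowest in old EC-K4KO. Pairs of libraries shared 7 to 42 barcodes. Cells were grouped into 33 clusters, and 28 of these received a class name from marker genes, written as microglia-like and so on. The levels below are CPM, in which the UMIs of a gene are scaled by all UMIs of the same class in the same library so that every unit has the same total, and their 95% intervals (exact Poisson) cover counting error only.

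The labels were checked first on Klf4, the gene that the floxed allele targets. In endothelial-like cells it stood at 1709.5 CPM, 3288 CPM, 2091 CPM and 3301 CPM, so both libraries labelled EC-K4KO had the higher levels, at either age. The additive model put the difference at 0.83 ± 0.11 (log2, SE) in the direction opposite to a deletion (edgeR quasi-likelihood test, Benjamini-Hochberg adjusted p = 0.0218). The counts do not say whether these transcripts carry the floxed part of the gene. The paper checked the deletion separately, by Klf4 mRNA and KLF4 protein in brain endothelial cells isolated after tamoxifen, and not on these libraries. The genotype names are therefore used only as the labels of the libraries, and no direction is read as an effect of losing Klf4.

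**Figure D1:**
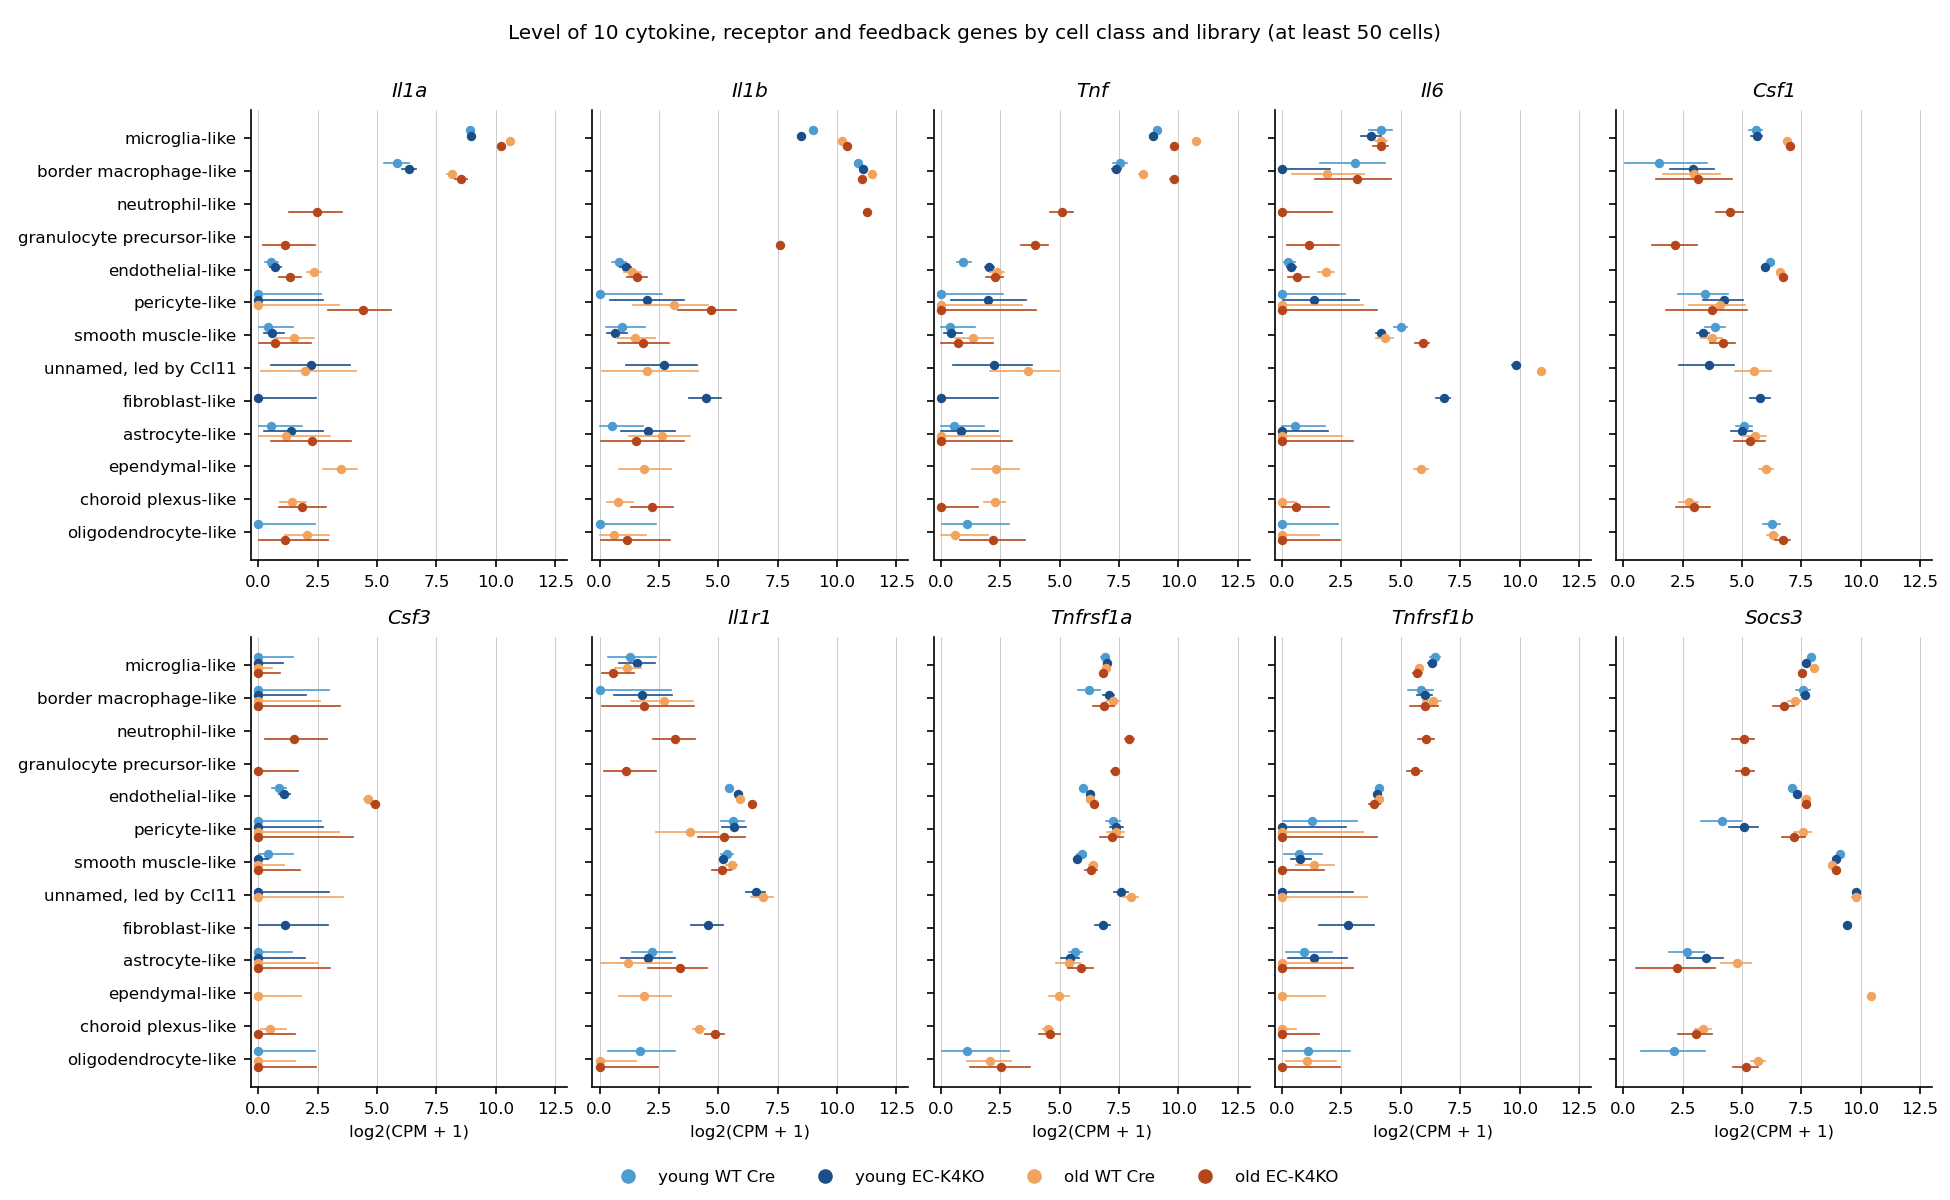
Level of each of the 10 genes by cell class, as log2(CPM + 1) on the horizontal axis, with 1 point for each library that held at least 50 cells of the class and lines for the 95% Poisson interval. Il1a and Tnf are high in microglia-like and border macrophage-like cells, Il1b also in neutrophil-like cells, and Csf3 in endothelial-like cells of the 2 old libraries.

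The interleukin-1 and TNF transcripts came almost wholly from myeloid cells. Microglia-like cells made up 7.45% to 23.4% of the kept cells of a library but held 92.2% to 97.2% of all Il1a UMIs and 81.2% to 96.6% of all Tnf UMIs. Il1b was divided between 3 classes. Microglia-like cells held 44.3%, 24.6%, 75.5% and 59.0% of the Il1b UMIs, border macrophage-like cells 42.8%, 50.6%, 17.7% and 8.43%, and neutrophil-like cells 10.4%, 15.4%, 5.44% and 28.7%. The main carrier of Il1b in young EC-K4KO was thus the border macrophage-like class, and in both old libraries the microglia-like class. These shares depend on how many cells of each class survived the endothelial enrichment, and with classes assigned cell by cell the border macrophage-like share in young EC-K4KO was 22.9% in place of 50.6%.

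Csf3 came almost wholly from endothelial-like cells, which also held most Csf1 UMIs. Il6 came mainly from other cells outside the myeloid classes. Endothelial-like cells held 92.5% to 98.1% of all Csf3 UMIs. They also held 79.7% and 76.0% of the Csf1 UMIs in the young libraries and 51.1% and 55.9% in the old. Microglia-like cells held 30.9% and 26.1% in the old against 4.20% and 4.97% in the young. The endothelial-like share is to be read beside its 2754 of 4496, 3332 of 6555, 2174 of 5540 and 1905 of 4146 kept cells. The Csf1 level was 71.6 CPM, 60.9 CPM, 96.2 CPM and 106 CPM in endothelial-like cells. In microglia-like cells it was 46.8 CPM, 48.0 CPM, 119 CPM and 129 CPM, the higher in both old libraries. Il6 was carried by few cells of several kinds. A cluster of 217 cells led by Ccl11, Ccl19 and Il6, whose leading genes included more markers of another class than of its own and which therefore stayed unnamed, held 20.8%, 56.1%, 66.1% and 36.6% of the Il6 UMIs. Smooth muscle-like cells held 54.1%, 22.8%, 6.39% and 16.6%, and microglia-like cells 19.1%, 5.14%, 12.9% and 12.5%.

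**Figure D2:**
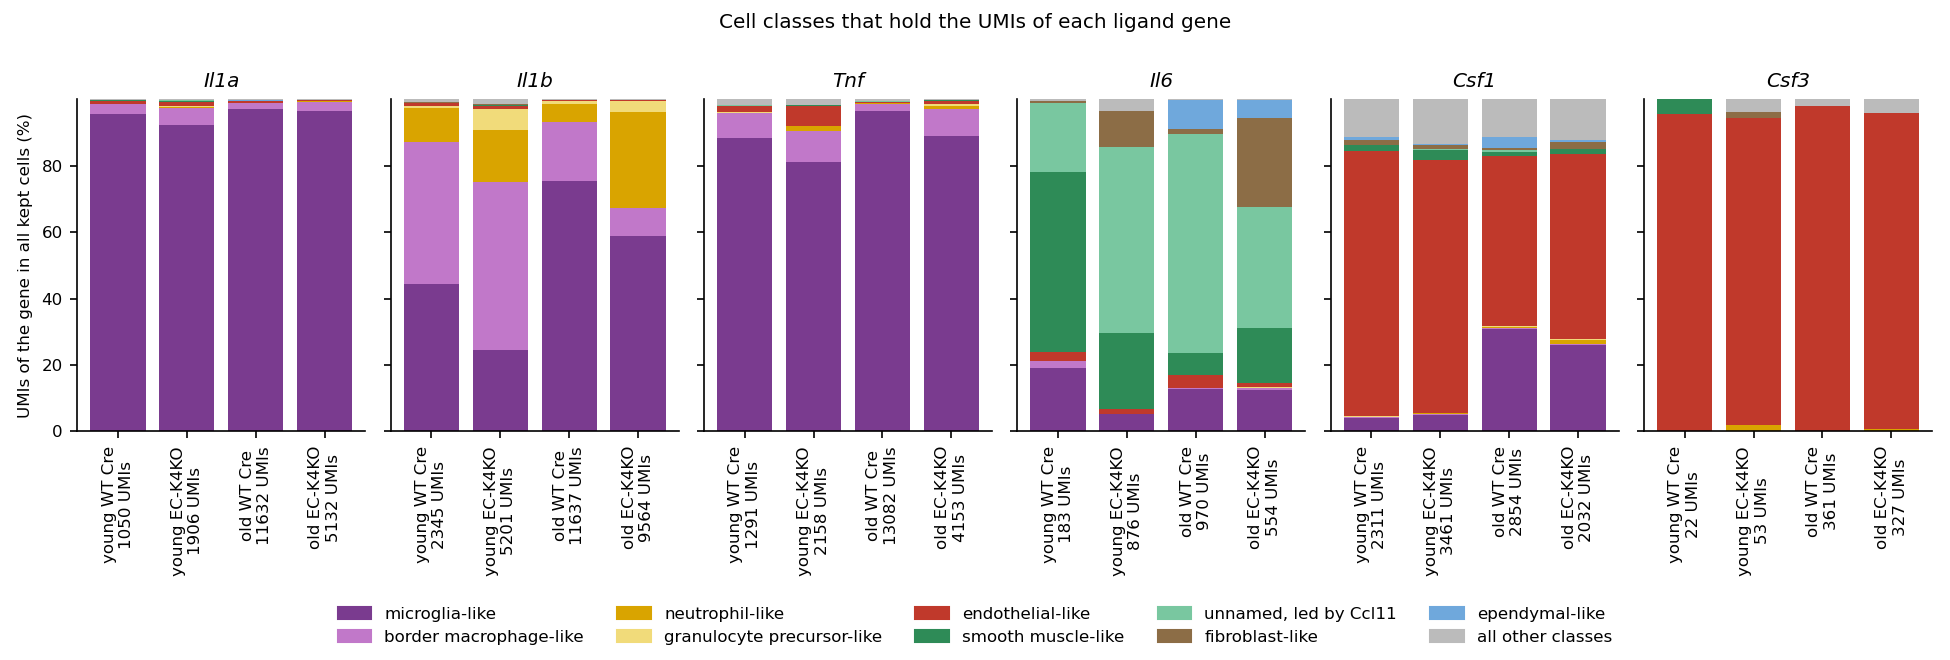
Share of the UMIs of each of the 6 ligand genes that fell in each cell class, as stacked bars of percent per library, with the total UMIs of the gene under each bar. Il1a and Tnf bars are filled by microglia-like cells, Csf3 bars by endothelial-like cells, and the Il1b and Il6 bars change makeup between libraries.

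In microglia-like cells, Il1a, Il1b, Tnf and Csf1 all rose with age. Il1a stood at 484 CPM and 490.2 CPM in the young libraries and 1532 CPM and 1204 CPM in the old. Il1b stood at 500.3 CPM and 357 CPM in the young and at 1190.2 CPM and 1371 CPM in the old. Tnf went from 549 CPM and 489 CPM to 1712 CPM and 897 CPM, and Csf1 from 46.8 CPM and 48.0 CPM to 119 CPM and 129 CPM. For each of these 4 genes both old libraries lay above both young ones. The receptor of CSF1, encoded by Csf1r, is a defining gene of microglia and macrophages.

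The age term of the additive model, which compares the 2 old with the 2 young libraries, gave Il1b 1.92 ± 0.14 (log2 change and SE, adjusted p = 3.12e-10). For Il1a it was 1.80 ± 0.12 (adjusted p = 7.82e-11), for Csf1 1.72 ± 0.13 (adjusted p = 5.11e-10) and for Tnf 1.58 ± 0.13 (adjusted p = 4.42e-09), each by edgeR's quasi-likelihood test with Benjamini-Hochberg adjustment over all genes of the class. Of the 10 genes, 8 passed the filter on low counts in this class and 4 rose, where 15.5% of all genes tested rose with age. The median change of those 8 was 1.06, against -0.02 for all genes. The members were chosen with earlier results of these data known. Counts of members in this and the other classes are therefore not independent support. The 4 libraries leave 1 residual degree of freedom, so the spread is borrowed largely across genes. Among all genes 1752 rose and 1202 fell, but without the scaling for composition the median gene moved by -0.35 and the split became 799 against 3784, with these 4 genes still called higher and Tnfrsf1b called lower.

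The other members did not pass in microglia-like cells. Il6, at 12.6 CPM to 16.9 CPM, changed by 0.54 (adjusted p = 0.0775, edgeR) and Socs3, at 182 CPM to 261 CPM, by 0.29 (adjusted p = 0.0525, edgeR). Tnfrsf1a was at 112 CPM to 128 CPM in all 4 libraries, with a change of 0.25 (adjusted p = 0.117, edgeR). Tnfrsf1b stood at 86.3 CPM and 78.9 CPM in the young libraries and at 54.2 CPM and 51.0 CPM in the old. Its change of -0.32 missed the threshold (adjusted p = 0.0646, edgeR). Csf3 had no UMI in this class in any library and Il1r1 had 2 to 9 UMIs per library, so neither was tested.

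Different clusters held most of the microglia-like cells at young and old age. A cluster with high Ccl3 and Ccl4 held 63 of 335, 82 of 578, 885 of 1297 and 497 of 756 cells, and a cluster led by P2ry13, P2ry12 and Tmem119, genes of homeostatic microglia, held 269, 494, 379 and 214. The 10 genes described here had been left out of the clustering, but Ccl3 and Ccl4 had not. Although left out, Il1a was the leading gene of the Ccl3-high cluster. The size of that cluster and its shares below are therefore given as the setting of the values and not as separate results. Of the UMIs of the class the Ccl3-high cluster held 71.9%, 67.6%, 96.7% and 95.5% for Il1a, and 92.0%, 89.8%, 97.9% and 97.8% for Il1b. For Tnf it held 60.3%, 63.6%, 95.2% and 92.0%, and for Csf1 48.5%, 73.8%, 95.1% and 94.3%.

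Within each cluster the levels of Il1a, and of Il1b in the Ccl3-high cluster, were closer between ages than in the class as a whole. In the Ccl3-high cluster Il1a was at 1335 CPM, 1655 CPM, 1962 CPM and 1505 CPM, and in the P2ry13-led cluster at 182 CPM, 198 CPM, 186 CPM and 216 CPM. Il1b in the Ccl3-high cluster was at 1766 CPM, 1600.2 CPM, 1543 CPM and 1755 CPM, so that old WT Cre was the lowest. In the P2ry13-led cluster Il1b was lower throughout but kept the order by age, at 54.3 CPM, 44.7 CPM, 86.8 CPM and 107 CPM. Tnf in the Ccl3-high cluster spread more, from 1270.2 CPM and 1554 CPM in the young libraries to 2159.6 CPM and 1079.7 CPM in the old ones, where WT Cre was the highest and EC-K4KO the lowest of the 4. Csf1 there was at 86.9 CPM, 177 CPM, 151 CPM and 159 CPM.

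The direction with age turned in several pairs of libraries once the cluster was fixed. Old over young within the Ccl3-high cluster gave -0.19 (log2) for Il1b in WT Cre, and -0.53 for Tnf, -0.14 for Il1a and -0.15 for Csf1 in EC-K4KO. Socs3 and Il6 in WT Cre, whose ratios in the class were near 0 (0.11 and 0.0056), gave -0.43 and -0.72 within the cluster and -0.56 and -0.16 without it. Without that cluster Csf1 in WT Cre gave -0.46. The immediate early and dissociation list of 15 genes, which marks cells stressed during isolation, summed to 15201 CPM, 14117 CPM, 13858 CPM and 11078 CPM in the class, and its part in these values was not tested. The microglia markers summed to 20079.5 CPM and 21922 CPM in the young libraries and 11963 CPM and 11627 CPM in the old, with none of the 8 at 0.

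**Figure D3:**
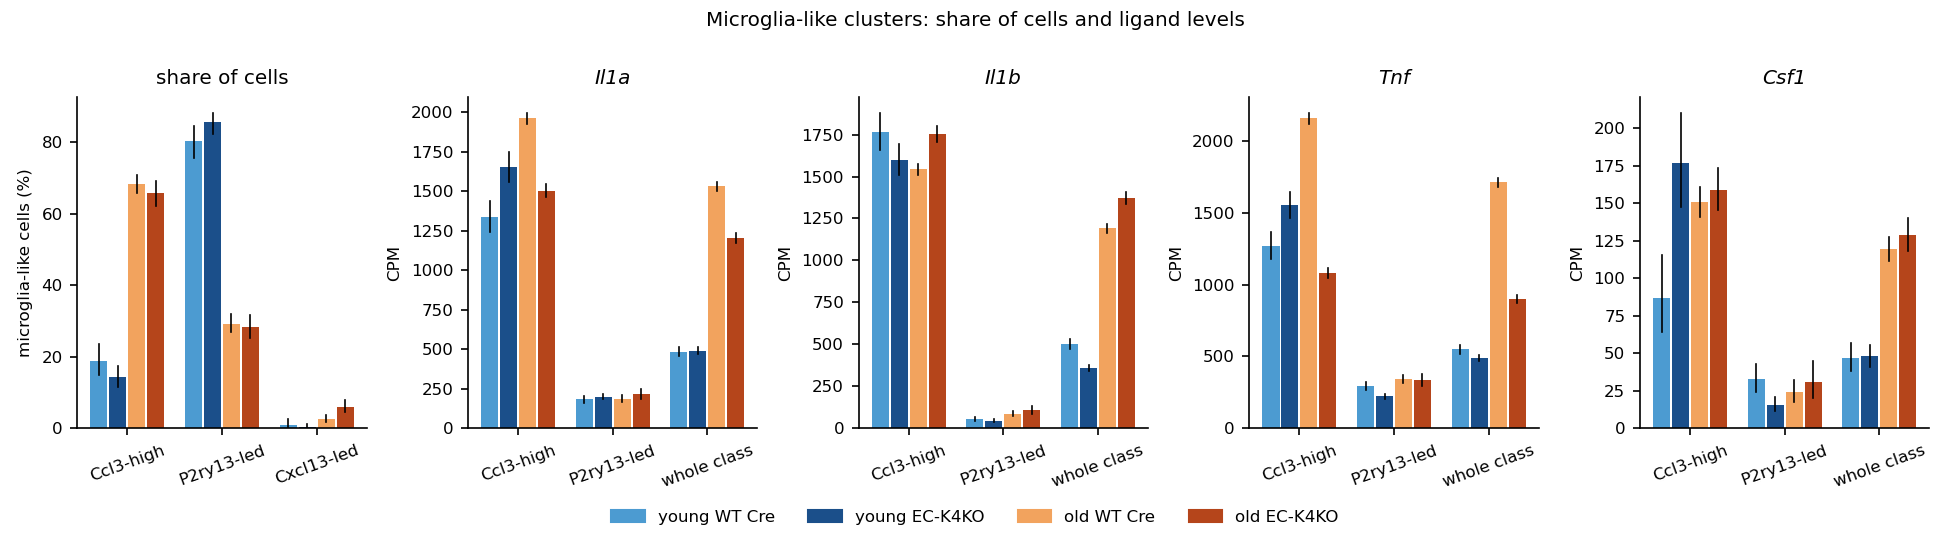
Share of the microglia-like cells in each of 3 clusters (left, percent, lines for 95% Clopper-Pearson intervals) and level of 4 ligands in the Ccl3-high cluster, the P2ry13-led cluster and the whole class (CPM from 0, lines for 95% Poisson intervals), with 1 bar per library. The whole class differs between ages for all 4 ligands, while Il1a within either cluster and Il1b within the Ccl3-high cluster differ less.

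Many cells of the Ccl3-high cluster held all 3 cytokines, and few of the P2ry13-led cluster did. Il1a led the first of these clusters, and Ccl3 and Ccl4 had the patterns most like that of Il1a. The contrast therefore describes how the clusters differ and is not a separate result. Of the Ccl3-high cells, 52.4%, 56.1%, 52.4% and 48.9% had a UMI of Il1a, of Il1b and of Tnf at once. Of the P2ry13-led cells this held for 3.35%, 2.83%, 4.22% and 4.21%, and 45.4%, 58.1%, 42.0% and 37.9% had none of the 3. Over all microglia-like cells, Il1a was seen in 51.6%, 43.6%, 74.3% and 72.4%, against 0.370%, 1.13%, 0.606% and 1.56% of astrocyte-like cells, which are not a known source. Median depth was 5545 UMIs, 5608.5 UMIs, 5376 UMIs and 4869 UMIs in microglia-like and 7609.5 UMIs, 6844 UMIs, 4376 UMIs and 3666.5 UMIs in astrocyte-like cells. With every cell thinned to 1000 UMIs, the microglia-like shares were 23.6%, 19.2%, 52.0% and 48.5%, so the order by age held at equal depth.

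No member differed with the genotype label in microglia-like cells by edgeR or by DESeq2, where 0.488% of all genes did in either direction by edgeR, and 2 of the 8 members had an unadjusted p under 0.05. The largest value was for Tnf, -0.55 (adjusted p = 0.0663, edgeR), and it passed under 6 of 8 alternatives, the exceptions being DESeq2 and the removal of barcodes shared between libraries. In the pairs of libraries, Tnf in old EC-K4KO was at 0.52 times old WT Cre (95% interval 0.51 to 0.54, counting error only) and in young EC-K4KO at 0.89 times young WT Cre (0.83 to 0.96). The 4 pairs share libraries, and none has a replicate.

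The promoters of the 3 cytokines that microglia-like cells carried together, and that of Il6, which came mainly from other cells, are shown for comparison. They are the 250 bases before the RefSeq start (GRCm38.p6), with motif matches in capitals, and lie at chr2:129309973-129310222 (minus strand, Il1a), chr2:129371140-129371389 (minus strand, Il1b), chr17:35202008-35202257 (minus strand, Tnf) and chr5:30012864-30013113 (plus strand, Il6).
Il1a: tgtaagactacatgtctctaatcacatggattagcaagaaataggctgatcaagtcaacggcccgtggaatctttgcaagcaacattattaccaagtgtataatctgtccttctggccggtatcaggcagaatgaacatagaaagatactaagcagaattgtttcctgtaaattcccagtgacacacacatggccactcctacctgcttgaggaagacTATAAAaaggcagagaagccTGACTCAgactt
Il1b: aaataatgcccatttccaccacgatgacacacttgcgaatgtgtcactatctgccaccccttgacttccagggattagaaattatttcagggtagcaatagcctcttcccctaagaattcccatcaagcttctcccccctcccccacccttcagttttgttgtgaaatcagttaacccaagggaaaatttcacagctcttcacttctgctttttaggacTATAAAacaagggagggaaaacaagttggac
Tnf: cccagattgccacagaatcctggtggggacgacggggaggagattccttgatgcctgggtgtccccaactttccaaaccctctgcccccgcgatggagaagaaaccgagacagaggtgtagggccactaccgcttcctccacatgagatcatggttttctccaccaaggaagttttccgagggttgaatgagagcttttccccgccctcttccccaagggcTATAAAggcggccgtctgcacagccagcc
Il6: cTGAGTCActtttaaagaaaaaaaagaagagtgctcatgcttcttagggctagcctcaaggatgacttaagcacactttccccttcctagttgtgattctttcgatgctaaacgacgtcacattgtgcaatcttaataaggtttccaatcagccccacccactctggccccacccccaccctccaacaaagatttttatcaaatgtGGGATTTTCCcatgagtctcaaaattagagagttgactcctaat

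All 3 myeloid cytokine promoters held TATAAA, which starts 32 bases before the start of Il1a, 31 before that of Il1b and 29 before that of Tnf. Of 32851 promoters of the same length, 12.4% hold TATAAA on either strand. The AP-1 motif TGANTCA was found in Il1a and, far from the start, in Il6, and in 6.75% of all promoters. The NF-kB motif was found in Il6, where it ends 35 bases before the start, as well as in Csf1 and in the second of 2 starts of Il1r1, and in 3.90% of all promoters. The STAT motif TTCNNNGAA was found once each in Tnfrsf1a, Tnfrsf1b and Socs3 and in 7.02% of all promoters, and the CRE motif TGACGTCA in none of the 9 members with an entry and in 1.55% of all. Both strands were searched, no 2 matches overlapped, and a match describes the letters only.

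Border macrophage-like cells (68, 135, 104 and 54 cells), led by Mrc1, Ccl8 and Cd209f and also by MHC class II genes, had high Il1b in all libraries. Its levels there were 1889.7 CPM, 2183 CPM, 2842 CPM and 2128 CPM, without an order by age. Il1a was higher in the old libraries, with 56.5 CPM, 81.3 CPM, 281 CPM and 370 CPM, and Tnf likewise, with 187 CPM, 167 CPM, 368 CPM and 900.2 CPM. A single cell held 85 of the 140 Il1a UMIs and 205 of the 341 Tnf UMIs of old EC-K4KO, and without the top cell these levels were 154 CPM and 381 CPM.

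The model was fitted in the 3 largest classes only, so no test was made in this class. A pair was counted where the ratio was at least 2 with a counting interval that leaves out 1. Between old and young WT Cre this held for Il1a, 4.97-fold (3.38 to 7.56), and Tnfrsf1a, 2.01-fold (1.39 to 2.96), and for 3.11% of all genes with enough UMIs. Between old and young EC-K4KO it held for Il1a, 4.55-fold (3.49 to 5.95), and Tnf, 5.37-fold (4.50 to 6.43), and for 1.89% of all genes. Both rest in part on the 1 cell of old EC-K4KO: without it Il1a, at 154 CPM against 81.3 CPM, was less than 2-fold higher, while Tnf, at 381 CPM against 167 CPM, was still more than 2-fold higher. Neutrophil-like cells were numerous in old EC-K4KO (252 cells, against 11, 41 and 35), where Il1b stood at 2475 CPM and Il1a at 4.51 CPM. In the smaller groups Il1b had 243 UMIs, 802 UMIs and 633 UMIs.

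Endothelial-like cells were the main carriers of Csf3, and Csf3 had the largest age difference of the 10 genes there. Its level was 0.816 CPM and 1.13 CPM in the young libraries (21 UMIs and 49 UMIs) and 23.4 CPM and 29.0 CPM in the old (354 UMIs and 311 UMIs). Old exceeded young 28.6-fold in WT Cre (18.4 to 46.8) and 25.6-fold in EC-K4KO (18.9 to 35.3). The model gave 4.88 ± 0.15 (adjusted p = 5.68e-05, edgeR quasi-likelihood test). Csf3 remained past the threshold under every alternative of that model.

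The Csf3 transcripts came from few cells. A Csf3 UMI was found in 7, 13, 48 and 42 endothelial-like cells, which are 0.254%, 0.390%, 2.21% and 2.20% of the class. None was found in 335, 578, 1297 and 756 microglia-like cells, at median depths of 4869 UMIs to 5608.5 UMIs against 3768 UMIs to 9865.5 UMIs in endothelial-like cells. The upper 95% Clopper-Pearson bounds on the microglia-like cells with a Csf3 UMI are 1.10%, 0.636%, 0.284% and 0.487%. Thinned to 1000 UMIs per cell, the endothelial-like shares were 0% (0% to 0.134%), 0.0600% (0.00727% to 0.217%), 0.368% (0.159% to 0.724%) and 0.787% (0.441% to 1.30%), where the 95% Clopper-Pearson intervals cover counting error over the cells of single libraries only. Cells with Csf3 were deep, with medians of 26752 UMIs, 47906 UMIs, 18752.5 UMIs and 16400 UMIs, and 4, 10, 35 and 33 of them also held an Il1r1 UMI.

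Of these cells 3, 9, 35 and 32 belonged to a cluster led by Ackr1, Sele and Selp, genes of venules and of leukocyte adhesion. This cluster held 29 of 2754, 118 of 3332, 102 of 2174 and 129 of 1905 endothelial-like cells, and 642 of the 735 Csf3 UMIs of the class (87.3%). Within it Csf3 was at 19.6 CPM, 13.3 CPM, 166 CPM and 136 CPM, so the old libraries were also the higher ones here, though the young WT Cre levels of this cluster rest on its 29 cells. Outside it only 4, 4, 36 and 49 Csf3 UMIs remained. Of the 49 in old EC-K4KO, 46 came from a cluster led by Cytl1, at 18.6 CPM against 2.70 CPM in old WT Cre.

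Il1r1, the receiving end of interleukin-1, was carried mainly by endothelial-like cells, which held 67.7% to 81.6% of its UMIs in these endothelium-enriched libraries. Other cells carried it at levels on either side of theirs. Pericyte-like cells stood at 48.2 CPM, 49.8 CPM, 13.1 CPM and 36.7 CPM of Il1r1, and the Ccl11-led cluster at 94.6 CPM in young EC-K4KO and 115 CPM in old WT Cre. The Il1r1 level of endothelial-like cells was 42.8 CPM, 55.8 CPM, 58.8 CPM and 84.9 CPM, and both old libraries lay above both young ones. The model gave 0.68 ± 0.07 with age (adjusted p = 0.00141) and 0.48 ± 0.07 with the genotype label (adjusted p = 0.0315, both edgeR quasi-likelihood), and DESeq2 gave 0.49 for the label, which it did not call. With the main settings of edgeR no other member was called for the label in the 3 classes tested, and in endothelial-like cells 1.05% of all genes were called in either direction.

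Both Il1r1 calls were lost without the Ackr1-led cluster. This cluster held 26.2%, 42.0%, 57.6% and 75.5% of the Il1r1 UMIs of the class, at 333 CPM, 299 CPM, 269 CPM and 356 CPM, levels without an order by age. A cluster led by Cyp2e1 came next, at 127 CPM, 133 CPM, 90.15 CPM and 101 CPM, where both young libraries were the higher. The Ackr1-led cluster held 3.38%, 7.84%, 12.6% and 17.99% of the class UMIs, an order that the Il1r1 level followed. Without it the model gave -0.18 with age (not called) and 0.02 with the label (not called).

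Csf1 in endothelial-like cells went from 71.6 CPM and 60.9 CPM in the young libraries to 96.2 CPM and 106 CPM in the old, a change of 0.76 ± 0.09 (adjusted p = 0.00247, edgeR). The Ackr1-led cluster held 11.6%, 28.2%, 49.2% and 58.2% of its UMIs, at 246 CPM, 219 CPM, 376 CPM and 343 CPM, higher in both old libraries. Without that cluster the change was 0.11 and not called. Socs3 rose from 139 CPM and 157 CPM to 206 CPM and 204 CPM, by 0.62 ± 0.08 (adjusted p = 0.00322, edgeR), and remained called without the cluster. Inside the cluster Socs3 ran the other way, at 1020.1 CPM and 503 CPM in the young and 299.7 CPM and 248 CPM in the old. In the arterial-type cluster led by Cytl1 it was at 183 CPM and 233 CPM in the young and 343 CPM and 294 CPM in the old.

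**Figure D4:**
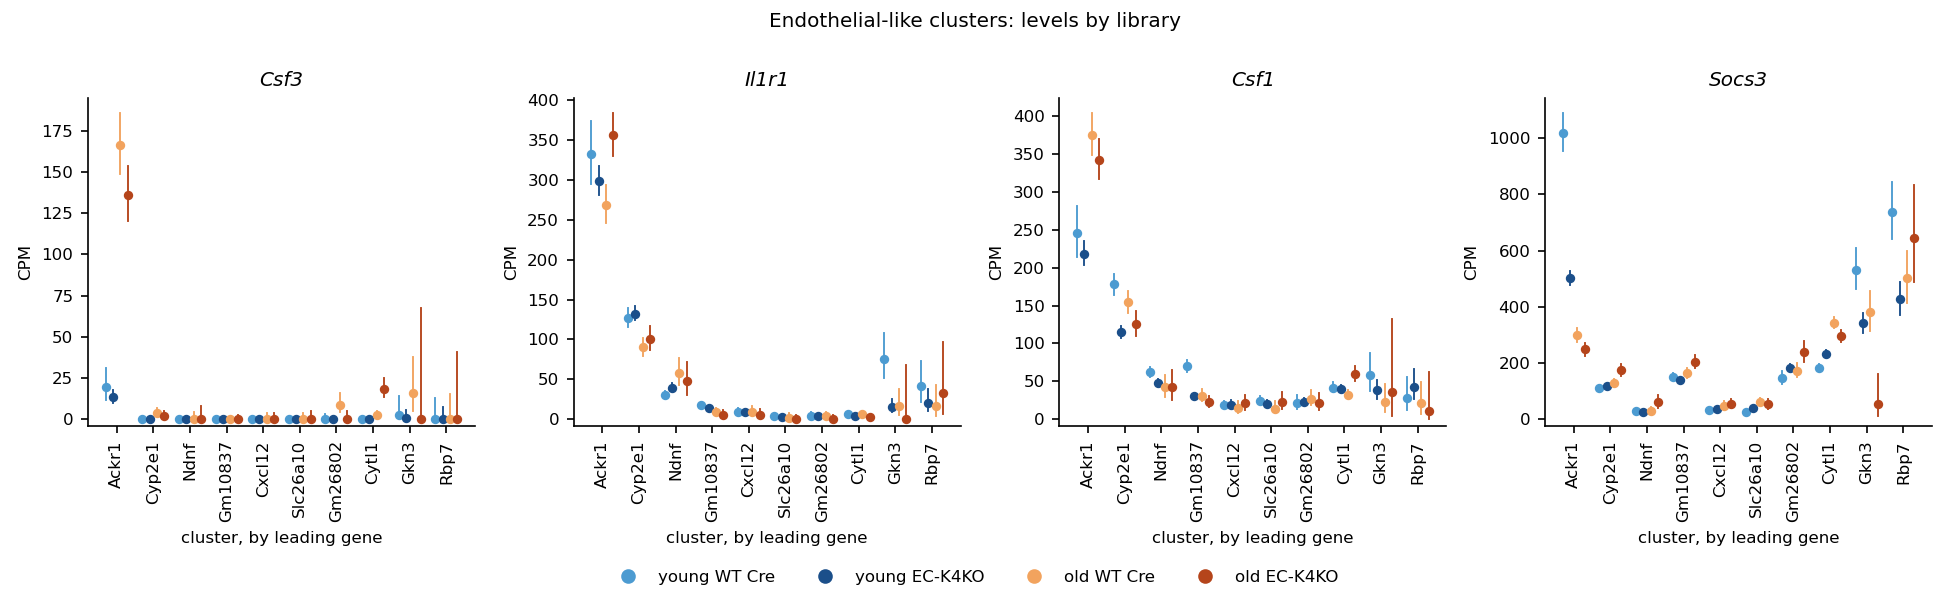
Levels of Csf3, Il1r1, Csf1 and Socs3 (CPM, linear axis) in the 10 endothelial-like clusters, named by a leading gene, with 1 point per library and lines for 95% Poisson intervals. The Ackr1-led cluster stands highest for Csf3, Il1r1 and Csf1, and its Socs3 level is highest in young WT Cre.

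The TNF receptors of endothelial-like cells changed little. Tnfrsf1a was at 63.1 CPM, 76.6 CPM, 76.3 CPM and 87.1 CPM, so old WT Cre did not exceed young EC-K4KO, and its change of 0.38 ± 0.07 with age passed (adjusted p = 0.0139, edgeR) but not without the Ackr1-led cluster (0.20) or by DESeq2 (0.39). Tnfrsf1b was at 15.9 CPM, 15.1 CPM, 15.8 CPM and 13.8 CPM, with a change of 0.09 (adjusted p = 0.633, edgeR).

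Il1a, Il1b, Tnf and Il6 were scarce in endothelial-like cells. Il1a had 11, 27, 61 and 16 UMIs there, which is 0.0884%, 0.128%, 0.263% and 0.124% of its microglia-like level. The microglia markers themselves stood in endothelial-like cells at 0.260%, 0.249%, 0.452% and 0.462% of their microglia-like level, so Il1a was below the level of those markers in every library. Il1b was above the marker level in young EC-K4KO alone, at 0.318%, with a counting interval of 0.235% to 0.420% that holds the marker value. Tnf was above it in young EC-K4KO (0.640%, interval 0.536% to 0.757%) and at or below it in the other 3.

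Beside these values stand the calls of the model. Il1a was called higher with age in endothelial-like cells (2.39 ± 0.50, adjusted p = 0.0208, edgeR), as was Il6 (2.54 ± 0.67, adjusted p = 0.0422, edgeR), which had 5, 13, 39 and 6 UMIs, 26 of the 39 in 1 cell of old WT Cre. The source of the Il1a UMIs in these cells was not tested. Tnf (1.26, adjusted p = 0.0832) and Il1b (1.07, adjusted p = 0.0794, both edgeR) were not called.

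In all, 7 of the 10 genes were called higher with age in endothelial-like cells and none lower, where 10.4% of all genes tested were called higher. DESeq2 called 5 of them, and of the other 2 it did not call Tnfrsf1a and gave no adjusted p for Il6. The median change of the 10 genes was 0.92 against -0.02 for all genes. The members were chosen with earlier results of these data known, so neither the count nor the median is independent support. Of the 7, Il1a lay below the level of the microglia markers in every library. For Il6, 26 of the 39 UMIs of old WT Cre were in 1 cell. Among all genes 1555 rose and 965 fell, and without the scaling for composition the median gene moved by -0.16 and the split became 1127 against 3101, with the same 7 members called. Without the Ackr1-led cluster the called members were Csf3, Il1a, Il1b, Socs3 and Tnf, of 9 tested. The immediate early and dissociation list summed to 16169 CPM and 20954 CPM in the young endothelial-like cells and 27695 CPM and 24969 CPM in the old, and 8 of its 15 genes rose with age and none fell. Neutrophil markers summed to 149 CPM in old EC-K4KO against 6.65 CPM to 9.90 CPM in the others. The part of either in the changes above was not tested.

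**Figure D5:**
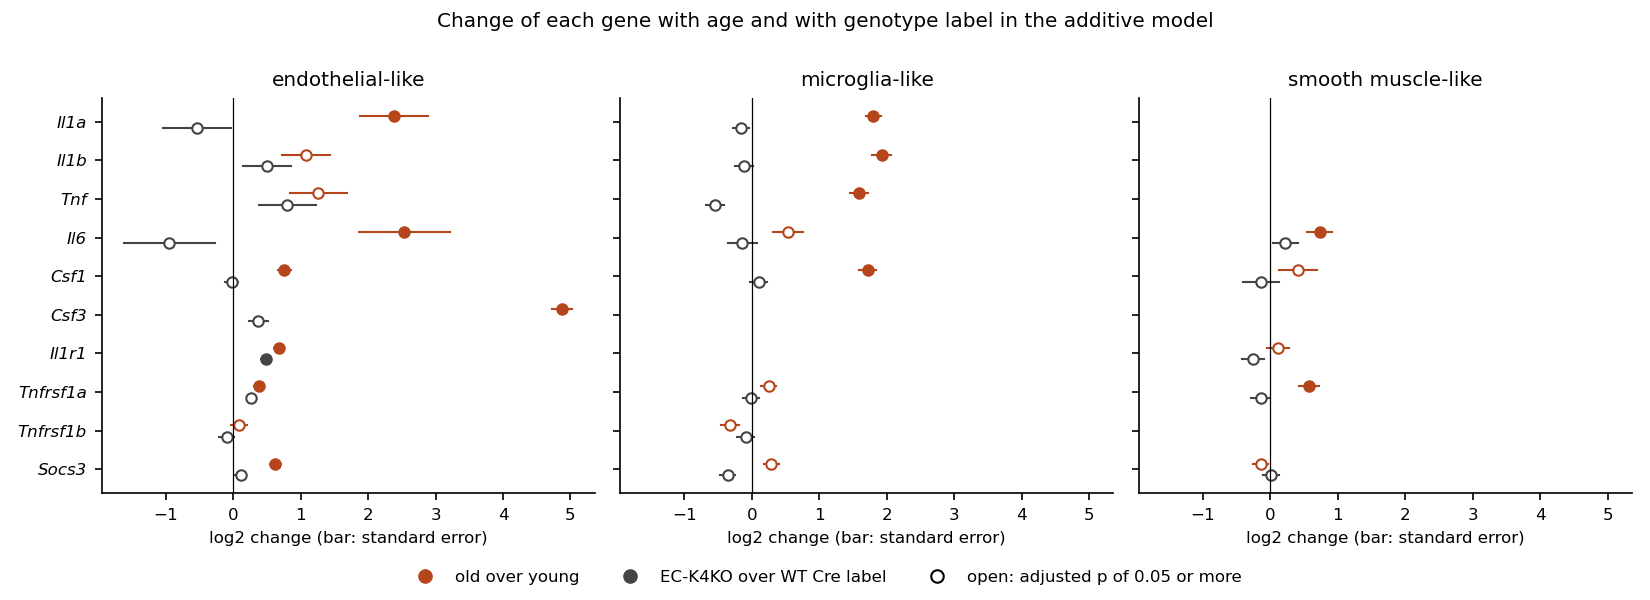
Log2 change of each gene with age (red) and with the genotype label (grey) in the additive edgeR model for 3 cell classes, with lines for the standard error, filled points for adjusted p under 0.05 and no point where a gene was not tested. Endothelial-like Csf3 lies farthest to the right, at 4.88, and 4 microglia-like ligands lie between 1.58 and 1.92.

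Il6 was highest in the Ccl11-led cluster and rose to high levels in single cells of other kinds. In the Ccl11-led cluster it stood at 910.3 CPM in young EC-K4KO (88 cells, 491 UMIs) and 1893 CPM in old WT Cre (84 cells, 641 UMIs). The other 2 libraries held 18 cells with 38 UMIs (young WT Cre) and 27 cells with 203 UMIs (old EC-K4KO). Fibroblast-like cells held 1, 93, 14 and 148 Il6 UMIs, of which 1 cell carried 70 in young EC-K4KO and 1 cell 77 in old EC-K4KO. Ependymal-like cells held 0, 2, 84 and 29.

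In smooth muscle-like cells Il6 was at 30.9 CPM, 16.8 CPM, 19.1 CPM and 59.5 CPM, so the ages overlapped. The ratio of old to young was 0.62 in WT Cre (0.44 to 0.86) and 3.54 in EC-K4KO (2.73 to 4.55). A single cell held 33 of the 99 UMIs of young WT Cre. Without the top cell of each library the levels were 20.7 CPM, 14.3 CPM, 17.0 CPM and 46.3 CPM. The model called Il6 higher with age (0.73 ± 0.19, adjusted p = 0.00312, edgeR). That call was lost under 6 of 8 alternatives, those of DESeq2, the stricter cell filter and the removal of shared barcodes among them. Tnfrsf1a in this class went from 60.0 CPM and 51.8 CPM to 83.6 CPM and 78.95 CPM, a change of 0.57 ± 0.14 (adjusted p = 0.0019, edgeR) that DESeq2 and the stricter cell filter did not call. Of 5 members tested these 2 rose, where 4.07% of all genes did. Il1r1, at 34.3 CPM to 46.6 CPM, Csf1, at 9.17 CPM to 17.5 CPM, and Socs3, at 436 CPM to 564 CPM, were not called. No member differed with the label by edgeR or DESeq2, and 0 of the 5 had an unadjusted p under 0.05, where 0.444% of all genes were called in either direction by edgeR.

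Socs3 was found in every class described above. In pericyte-like cells it was at 17.0 CPM and 33.2 CPM in the young libraries and 188 CPM and 147 CPM in the old, 11.05-fold (5.95 to 22.4) and 4.42-fold (2.53 to 7.89). The immediate early and dissociation list in the same cells summed to 3073 CPM, 7679.9 CPM, 32565 CPM and 21066 CPM, and its part in the Socs3 difference was not tested. Ependymal-like cells of old WT Cre had 1375 CPM of Socs3, and fibroblast-like cells of young EC-K4KO 676 CPM. Tnfrsf1a was found in vascular, glial and myeloid classes alike, at 147 CPM to 168 CPM in pericyte-like cells and 245 CPM in the neutrophil-like cells of old EC-K4KO, and was low in oligodendrocyte-like cells (1.13 CPM to 4.82 CPM). Tnfrsf1b was higher in microglia-like and border macrophage-like cells (51.0 CPM to 86.3 CPM) than in endothelial-like cells, and in smooth muscle-like cells it did not pass 1.54 CPM.

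The genes with the most similar pattern over 46 class and library units were, for Il1a, Ccl4 and Ccl3 (Pearson r of 0.94 for both on log2(CPM + 1), among 9913 genes). For Il1b they were Osm (0.97), C5ar1 (0.96) and Fcgr3 (0.95), and for Tnf C5ar2 (0.95), Tlr7 (0.95) and Aif1 (0.94). Il6 was most like Stbd1 (0.75), Myc (0.75) and Gem (0.73), Csf1 most like Adgrg1 (0.74), Qk (0.69) and Zfpm1 (0.68), and Csf3 most like Sele (0.77), Depp1 (0.71) and Ptgs2os (0.69). Among the receptors Il1r1 was most like Nr2f2 (0.87), Tmtc1 and Dock6 (both 0.83), Tnfrsf1a most like Arhgef6, Vasp and Cpne3 (all 0.83), and Tnfrsf1b most like Fes (0.93), Neurl3 and Slfn2 (both 0.92). Socs3 was most like Zfp36 (0.90), Csrnp1 (0.90) and Junb (0.89). The units share libraries and depth, so these values only describe the pattern.

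Other genes of the same pathways were read from 4 lists, whose counts are to be set beside the 15.5%, 10.4% and 4.07% of all genes that rose with age in microglia-like, endothelial-like and smooth muscle-like cells, and the 10.7%, 6.48% and 2.74% that fell. In microglia-like cells 3 of 14 measured genes of the interleukin-1 list rose with age, the receptor antagonist Il1rn (1.91), the inflammasome sensor Nlrp3 (1.60) and the kinase Irak2 (0.42), and 1 fell, Il1rl1 (-1.49), which encodes the interleukin-33 receptor. Of 14 genes of the TNF list Ltb (0.70) and Birc3 (0.59) rose. Of 14 genes of the interleukin-6 list 5 rose, among them Osm (0.93), Jak1 (0.60) and Il11ra1 (0.58), and 4 fell, among them Pias3 (-0.81), Lifr (-0.79) and the shared receptor chain Il6st (-0.65). Of 10 genes of the colony-stimulating factor list Spi1 rose (0.63), and Csf1r (-0.34) and Inpp5d (-0.34) fell. DESeq2 called 1, 0, 3 and 1 genes of these lists, in the order given.

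In endothelial-like cells none of 13 measured genes of the interleukin-1 list was called with age by edgeR or DESeq2, and 3 had an unadjusted p under 0.05 in edgeR. Of 15 genes of the TNF list 4 rose, Traf1 (0.98), Birc3 (0.88), Birc2 (0.68) and Ikbkb (0.42). Tnfsf10 (-0.60) and Adam17 (-0.27), the protease that sheds TNF, fell. Of 14 genes of the interleukin-6 list 4 rose, Stat3 (0.94), Osmr (0.87), Socs2 (0.47) and Il6ra (0.25), and 2 fell, among them Pias3 (-0.42). Of 10 genes of the colony-stimulating factor list Csf2rb (2.39) and Cish (0.50) rose. DESeq2 called 5 genes of the TNF list, 4 of the interleukin-6 list and 1 of the colony-stimulating factor list. In smooth muscle-like cells Pycard (1.06), Birc2 (0.96), Birc3 (0.69), Ripk1 (0.55) and Jak1 (0.48) rose and Irak2 fell (-0.78), of 9 genes measured in the interleukin-1 list, 13 in the TNF list, 14 in the interleukin-6 list and 4 in the colony-stimulating factor list. DESeq2 called 1 gene of the TNF list there and 0 of the other lists, in which edgeR gave 3, 5 and 0 genes an unadjusted p under 0.05. The genotype label gave no call for any gene of the 4 lists in the 3 classes by edgeR or DESeq2. In each list 1 to 6 genes had an unadjusted p under 0.05 in endothelial-like cells, 1 to 4 in microglia-like cells and 0 or 1 in smooth muscle-like cells, and the median change of each list lay between -0.14 and 0.19.

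The genes lie on several chromosomes (GRCm38, GENCODE M21). Il1a (chr2:129299610-129309972) and Il1b (chr2:129364570-129371139) are neighbours on the minus strand of chromosome 2. Csf3 (chr11:98701263-98703629, plus strand) and Socs3 (chr11:117966079-117970047, minus strand) are both on chromosome 11. The others are Tnf (chr17:35199381-35202007, minus strand), Il6 (chr5:30013114-30019981, plus strand), Csf1 (chr3:107741048-107760469, minus strand), Il1r1 (chr1:40225080-40317257, plus strand), Tnfrsf1a (chr6:125349362-125362484, plus strand) and Tnfrsf1b (chr4:145213463-145246870, minus strand).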

How the data were processed

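Droplet single-cell libraries of mouse brain were analysed from the count tables deposited by the authors, which hold whole-number UMI counts per gene and cell barcode, and whose headers name Cell Ranger 6.0.2 as the counting software. The submitters' notes name mm10, GRCm38, Cell Ranger and Seurat, and of 55487 gene IDs 55094 were found in GENCODE M21. Cells with at least 500 genes, 1000 UMIs and at most 10% mitochondrial UMIs were kept, and this limit took out 10.6% to 16.3% of barcodes. Scrublet (in scanpy 1.11.5) marked 39 to 150 cells per library by its automatic threshold, fewer than the usual rate for such numbers of cells, and cells were removed from the top of the score ranking at a rate of 0.8% for every 1000 cells (147 to 385 cells). Cells were clustered (2000 variable genes, 30 principal components, 20 neighbours, Leiden resolution 1, leidenalg 0.10.2), and clusters were named from marker lists. The variable genes left out the 10 members, the 4 pathway lists, the immediate early and dissociation list and mitochondrial genes. Per-cell marker scores gave the same class for 97.5% of cells in named clusters. The analysis ran in Python 3.11.15 (numpy 2.4.6, scipy 1.17.1, pandas 2.3.3, matplotlib 3.10.9).

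UMIs were summed per class and library. Levels of classes are given as CPM for at least 50 cells, and otherwise as UMIs and cells, while clusters within a class are given as CPM at any size, down to 29 cells. For the 3 largest classes, edgeR 4.0.16 (R 4.3.3) fitted quasi-likelihood models with age and genotype label as additive terms over the 4 libraries, with TMM factors and Benjamini-Hochberg adjustment over all genes, called at 0.05. With 1 library per group these p-values measure only the spread left over by the additive terms, and mice within a group were not compared. Ratios between 2 libraries carry 95% conditional binomial intervals and shares carry Clopper-Pearson intervals. The 4 age and label comparisons share libraries.

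The genes named are the 10 members, Klf4, up to 6 called genes from each pathway list, the 3 genes most like each member (with at least 50 CPM in 1 unit), and markers, and 2 genes that this rule names are not reported here. Members and lists were chosen with earlier results of these data known. Alternatives were other scalings, no low-count filter, DESeq2 1.42.0, a stricter cell filter (1000 genes, 5% mitochondrial), doublets kept, classes per cell, cells weighted equally, and leaving out the Ackr1-led cluster. Leaving out shared barcodes and splitting microglia-like cells at the Ccl3-high cluster were chosen after seeing the data.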

Additional observations from a re-analysis of the deposited data

Results flagged for a closer look

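In 6 cases a gene moved in opposite directions in the 2 ages or under the 2 genotype labels, by ratios of single libraries whose 95% intervals (counting error only) lay on either side of 0. The difference was not tested in any of them. The values are log2 ratios. Il1b in border macrophage-like cells, EC-K4KO over WT Cre, was 0.21 (0.10 to 0.31) in young and -0.42 (-0.54 to -0.30) in old. In old EC-K4KO 1 cell held 261 of the 806 Il1b UMIs of this class. Il1b in microglia-like cells was -0.49 (-0.61 to -0.37) in young and 0.20 (0.16 to 0.25) in old.

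Csf1 in endothelial-like cells, EC-K4KO over WT Cre, was -0.23 (-0.32 to -0.15) in young and 0.14 (0.03 to 0.25) in old. Socs3 in smooth muscle-like cells was -0.20 (-0.28 to -0.12) in young and 0.20 (0.07 to 0.33) in old.

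Il6 in smooth muscle-like cells, EC-K4KO over WT Cre, was -0.88 (-1.23 to -0.52) in young and 1.64 (1.16 to 2.13) in old. The same 4 libraries read the other way gave, for old over young, -0.69 (-1.17 to -0.22) in WT Cre and 1.82 (1.45 to 2.19) in EC-K4KO. In young WT Cre 1 cell held 33 of the 99 Il6 UMIs. Without it the level there was 20.7 CPM in place of 30.9 CPM, against 16.8 CPM in young EC-K4KO and 19.1 CPM in old WT Cre. Both negative ratios thus rest in part on this cell.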

How the results depend on the processing

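With 1 library per group no error between mice could be measured and no library could be left out with a test remaining. No paired analysis was possible because each group has only replicate 1. Of 50 counts of changed genes under an alternative 25 lay within 1.5 times the main count, and of 402 log2 changes in the model 352 kept their direction and side of the threshold, 23 passed it newly, 15 lost it and 12 reversed. Of 640 ratios between libraries 129 moved beyond their interval, and 52, some of them among these, had the opposite sign, 4 where the ratio had been at least 2-fold, and of 116 shares of ligand UMIs 41 moved. The cause of these differences was not tested.

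Genes changed with age in endothelial-like cells numbered 2520, but 4228 without scaling, 3872 without the low-count filter and 1002 with DESeq2. In microglia-like cells they numbered 2954, but 4583 without scaling and 695 with DESeq2. In smooth muscle-like cells they numbered 736, but 71 with DESeq2, 126 with the stricter cell filter, 488 with doublets kept and 484 with classes per cell.

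Genes differing with the genotype label in endothelial-like cells numbered 156, but 758 without the low-count filter, 307 with the stricter cell filter, 245 with doublets kept, 394 with classes per cell, 332 without shared barcodes and 419 without the Ackr1-led cluster. In microglia-like cells they numbered 55, but 117 without the low-count filter, 12 with DESeq2, 179 with doublets kept, 152 with classes per cell and 30 without shared barcodes. In smooth muscle-like cells they numbered 48, but 28 without scaling, 8 with DESeq2, 10 with the stricter cell filter, 18 with doublets kept and 14 with classes per cell.

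The mean share of Il1a UMIs in microglia-like cells went from 95.4% to 92.8% with doublets kept, and that of Csf3 in endothelial-like cells from 95.3% to 90.6% with doublets kept and 97.6% with the stricter filter.

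These changes reversed. Without scaling, age gave -0.063 for Tnfrsf1b in endothelial-like cells and -0.079 for Tnfrsf1a and -0.038 for Socs3 in microglia-like cells, and the label gave -0.0081 for Socs3 in smooth muscle-like cells. Without the Ackr1-led cluster, age gave -0.18 for Il1r1 and -0.11 for Tnfrsf1b in endothelial-like cells. Without shared barcodes the label gave 0.024 for Csf1 in endothelial-like cells. With the stricter filter the label gave 0.023 for Tnfrsf1a in microglia-like cells, and age gave -0.16 for Il1r1, -0.31 for Csf1 and 0.20 for Socs3 in smooth muscle-like cells. With doublets kept the label gave -0.031 for Socs3 in smooth muscle-like cells. Of these only Il1r1 with age had been called. Within the Ccl3-high cluster old over young gave -0.19 for Il1b in WT Cre, and -0.53 for Tnf (from a ratio under 2-fold), -0.14 for Il1a and -0.15 for Csf1 in EC-K4KO, and without that cluster -0.46 for Csf1 in WT Cre.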
